A study of Equus caballus with 28 samples.

Results

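eca-miR-132 and eca-miR-212 are 2 of the 690 known horse miRNAs in the deposited counts, which also hold 154 predicted miRNAs. They were chosen by name, with any arm suffix allowed, and each had 1 entry. The counts came from 28 small RNA libraries of Warmblood mares and their conceptuses, all sampled 13 days after ovulation. Endometrial biopsies and uterine fluid (UF) were taken from 5 mares in a pregnant cycle, after insemination with semen of 1 stallion. The same 5 mares also went through a cyclic control cycle in which they were left unbred. Libraries from that cycle exist for 4 of them. In its mRNA sequencing methods, the paper states that samples of cyclic mare 5 were left out for low quality. Ovulation was induced with hCG in both kinds of cycle, so all groups share that treatment. Embryonic tissue and yolk sac (YS) fluid came from the 5 conceptuses. UF was collected with a tampon, and the fluids and the tissues went through different RNA extraction kits. A difference between a fluid (UF or YS fluid) and a tissue (endometrium or embryo) thus cannot be told apart from one between kits.

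In mammals, miR-132 and miR-212 are cut from neighbouring hairpins of 1 primary transcript and share a seed, the stretch at the start of a miRNA that pairs with its targets. The gene is known as a target of CREB, the transcription factor that is switched on by cAMP and by growth factor signals, and both miRNAs are best known from neurons, where miR-132 acts on ARHGAP32. Outside the nervous system they are known in blood vessels, where miR-132 acts on RASA1, in immune cells, and in ovarian granulosa cells, where gonadotropin raises them. In the RefSeq annotation of the horse assembly TB-T2T, the hairpin genes MIR132 and MIR212 follow each other with 0 genes between them and lie between OVCA2 and HIC1, apart from a non-coding gene next to HIC1. The assembly differs from EquCab2.0, which the authors used, so no positions are given here.

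The libraries had between 4352 and 590593 miRNA reads, and values are given as CPM, reads per 1000000 miRNA reads of a library. The depth differed widely between groups, with between 280065 and 590593 reads in pregnant endometrium, 61836 and 371630 in cyclic endometrium, 79173 and 152860 in pregnant UF, 62087 and 226308 in cyclic UF, 28204 and 44768 in the embryos and 4352 and 14531 in YS fluid. The level that 3 reads amount to, taken as the floor of a library, was therefore between 5.08 and 10.7 CPM in pregnant endometrium and between 206 and 689 CPM in YS fluid. Intervals and floors cover counting error only. The labels were checked against marker miRNAs. The summed level of 8 miRNAs of the early embryo (miR-302, miR-367, miR-371 and miR-372) lay between 12020 and 65295 CPM in the embryos, between 34891 and 264130 CPM in YS fluid and between 0 and 32.2 CPM in the 18 maternal libraries. The 6 epithelial miRNAs of the miR-200 family and miR-205 summed to between 49244 and 97730 CPM in the maternal libraries. This sum did not tell maternal from conceptus libraries, since the ranges overlapped. Embryo sums ran from 93710 to 131812 CPM, while YS fluid sums ran from 48703 to 117864 CPM.

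Nearly all reads of the pair came from the maternal libraries, which were also the deepest. eca-miR-132 had 475 reads in the 18 maternal libraries, 0 in the 5 embryos and 2 in the 5 YS fluids. eca-miR-212 had 77 reads in the maternal libraries, 0 in the embryos and 0 in YS fluid. Neither is an abundant miRNA. By its mean level, eca-miR-132 ranked 133 among 308 known miRNAs with a read in pregnant endometrium and 94 among 268 in cyclic UF, and eca-miR-212 ranked 189 and 151.

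The level of eca-miR-132 in pregnant endometrium was 108, 71.0, 86.4, 75.0 and 76.4 CPM in mares 1 to 5, from 37, 24, 51, 21 and 22 reads. In cyclic endometrium it was 64.7, 93.0, 37.7 and 10.8 CPM in mares 1 to 4, from 4, 28, 14 and 3 reads. The pregnant samples lay close together, at 83.3 ± 14.7 CPM (SD, n = 5), while the cyclic samples spread widely, at 51.5 ± 35.3 CPM (SD, n = 4), and the groups overlapped through the cyclic sample of mare 2. In pregnant UF the levels were 223, 218, 150, 48.2 and 253 CPM in mares 1 to 5, a mean of 178 ± 81.8 CPM (SD, n = 5). In cyclic UF they were 516, 137, 96.6 and 210 CPM in mares 1 to 4, a mean of 240 ± 190 CPM (SD, n = 4). The cyclic UF of mare 1 had the highest level of all 28 libraries, and mare 4 had the lowest UF level in the pregnant cycle and the lowest endometrial level in the cyclic one. In YS fluid, the 2 reads were both in mare 3, which gives 153 CPM there, under the floor of 3 reads of 230 CPM for that library.

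eca-miR-212 lay lower in each maternal group. It was at 23.3, 20.7, 15.2, 10.7 and 20.8 CPM in pregnant endometrium, from 8, 7, 9, 3 and 6 reads, and at 32.3, 13.3, 8.07 and 3.59 CPM in cyclic endometrium, from 2, 4, 3 and 1 reads. In pregnant UF it had 4, 4, 4, 0 and 1 reads, or 29.7, 33.5, 26.2, 0 and 12.6 CPM, and in cyclic UF 9, 3, 1 and 8 reads, or 51.6, 13.3, 16.1 and 41.0 CPM. The groups overlapped throughout and 5 of the 18 maternal libraries had fewer than 3 reads. Group means were 18.2 ± 5.09 (SD, n = 5) and 14.3 ± 12.6 CPM (SD, n = 4) in pregnant and cyclic endometrium and 20.4 ± 13.8 (SD, n = 5) and 30.5 ± 18.8 CPM (SD, n = 4) in pregnant and cyclic UF.

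**Figure D1:**
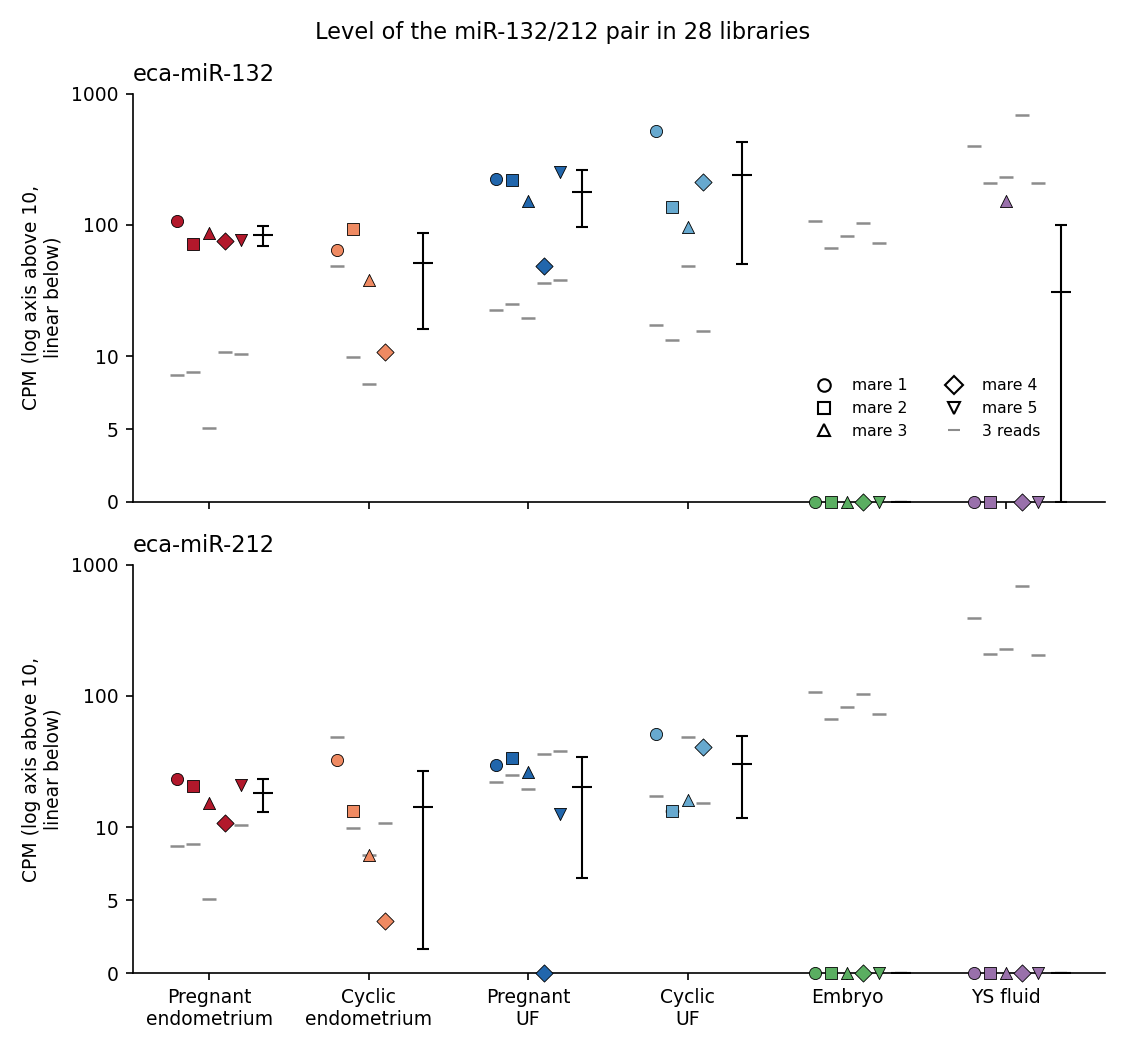
Level of eca-miR-132 (top) and eca-miR-212 (bottom) in each of the 28 libraries in CPM, on an axis that is logarithmic above 10 and linear below; symbols mark the mare, black bars the group mean and SD (the lower bar stops at 0), and grey dashes the level that 3 reads amount to in that library. The embryos are at 0 for both miRNAs, and the grey dashes in YS fluid lie between 206 and 689 CPM, above every endometrial value of either miRNA.

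Ordered by mean level, eca-miR-132 was highest in cyclic UF, then pregnant UF, pregnant endometrium, cyclic endometrium, YS fluid and embryo, and eca-miR-212 followed the same order with YS fluid and embryo both at 0. None of the steps between neighbours within the maternal groups passed the study's thresholds, a fold change of at least 2 with an FDR of 0.05 or less, in edgeR's quasi-likelihood test over all tested miRNAs. The step from cyclic endometrium to YS fluid was not tested, and between YS fluid and embryo neither miRNA had enough reads to be tested. Comparisons with a group in common use the same libraries of that group.

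Whether pregnancy alters the pair in the uterus was asked by comparing pregnant with cyclic samples, with the mare as block. In the endometrium, eca-miR-132 stood at a fitted 2.24 times the cyclic level in pregnant samples, 1.16 on the log2 scale (standard error 0.49, 95% interval 0.20 to 2.13). Its unadjusted p was 0.0185, the 23rd smallest of 386, and its FDR from edgeR's quasi-likelihood test was 0.223, so it was not called. The paper reports eca-miR-132 as higher in pregnant endometrium with edgeR at the same thresholds, a call that the fit used here did not give. In that fit 3.37% of the tested miRNAs were called, each of them higher in pregnant mares, and an unadjusted p under 0.05 was found for 16.8%. These shares include predicted miRNAs with identical counts. Counting those once, 7 of 323 were called and 33 had such a p. With known miRNAs only, 2 of 267 were called and 20 had such a p. The median log2 fold change over all tested miRNAs was 0.08. eca-miR-212 had a log2 fold change in the same direction, 0.85 (standard error 0.74, interval −0.60 to 2.30, FDR 0.778), on 33 reads from pregnant and 10 from cyclic samples.

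The direction within single mares rested on few reads and, in mare 2, on the scaling. By library totals, eca-miR-132 was higher in the pregnant endometrium of 3 of 4 mares, 6.96-fold in mare 4 (counting interval 2.08 to 36.4), 2.29-fold in mare 3 (1.25 to 4.48) and 1.66-fold in mare 1 (0.597 to 6.42). In mare 2 the pregnant sample was at 0.764 times the cyclic one (0.424 to 1.37). After TMM normalization, the scaling edgeR uses, the pregnant and cyclic samples of mare 2 stood at 71.0 and 70.6 CPM, which turns 3 of 4 into 4 of 4 by a margin that is far below its counting error. The TMM factor of the cyclic endometrial library of mare 2 was 1.32, the largest of the 9. By library totals the log2 fold change was 0.93 (FDR 0.373 in the same test) where the median of all tested miRNAs was −0.15, so relative to that median it was 1.08 under library totals and 1.09 under TMM. Mare 2 and mare 4 carried the value in opposite directions. Without mare 2 the log2 fold change was 1.66 and eca-miR-132 was called (FDR 0.037), and without mare 4 it was 0.70 (FDR 0.783). eca-miR-212 was higher in the pregnant endometrium of 3 of 4 mares under either scaling, and lower in mare 1.

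In UF the pair showed no common direction. eca-miR-132 was lower in pregnant than in cyclic UF of mare 1 (0.431 times, counting interval 0.275 to 0.658) and mare 4 (0.229 times, 0.0596 to 0.633), and higher in mare 2 (1.59-fold, 0.906 to 2.76) and mare 3 (1.56-fold, 0.616 to 4.67). The 2 mares with the lower pregnant sample are thus the only ones in which the counting intervals left out equality. Its log2 fold change was −0.37 (standard error 0.56, interval −1.46 to 0.72, FDR 0.923 from edgeR's quasi-likelihood test), which allows anything between a 0.363-fold and a 1.65-fold level in pregnant UF. eca-miR-212 was likewise lower in mares 1 and 4 and higher in mares 2 and 3, at −0.24 on the log2 scale (standard error 0.79, interval −1.78 to 1.30, FDR 0.996). Of the tested miRNAs, 4.92% were called in UF. Counting identical predicted miRNAs once, 8 of 266 were called, and with known miRNAs only 3 of 220.

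**Figure D2:**
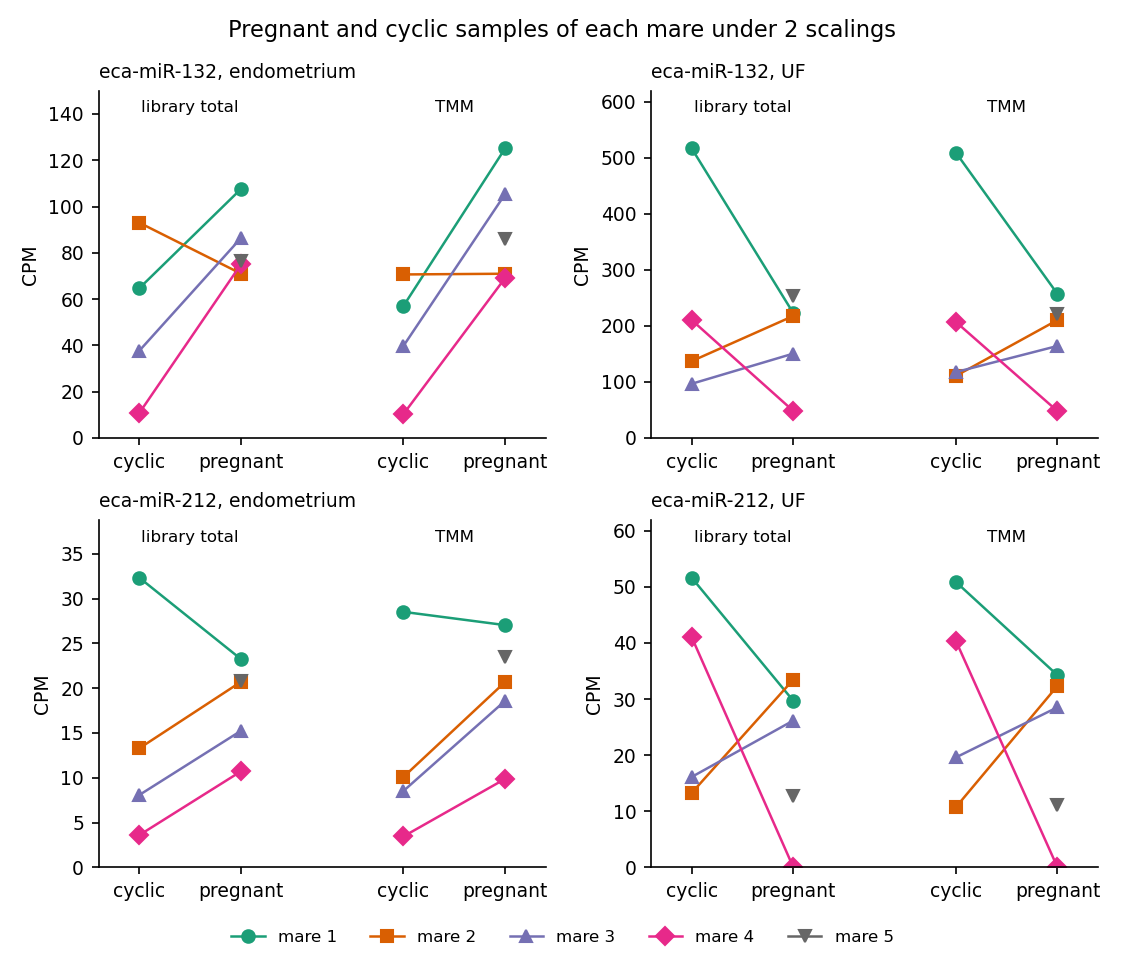
CPM of eca-miR-132 (top) and eca-miR-212 (bottom) in the cyclic and pregnant samples of each mare in endometrium (left) and UF (right), scaled by the library total or by TMM; each line joins the samples of 1 mare, and mare 5 has a pregnant sample only. In the endometrium, eca-miR-132 of mare 2 falls from 93.0 to 71.0 CPM by library totals and is level by TMM, and in UF the lines of mares 1 and 4 run opposite to those of mares 2 and 3.

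The pregnancy effect on eca-miR-132 was smaller in UF than in the endometrium by 1.68 on the log2 scale (standard error 0.71, 95% interval −3.12 to −0.24). This difference had an unadjusted p of 0.0231 and an FDR of 0.563 in edgeR's quasi-likelihood test of the interaction, so the effects in endometrium and UF were not shown to differ. By this test 1.69% of 415 miRNAs were called. For eca-miR-212 the difference was −1.24 (standard error 1.02, FDR 0.947). The value for eca-miR-132 lay between −2.56 and −0.56 when each mare was left out in turn.

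Marker miRNAs of other cell types were, with 1 exception, not called between pregnant and cyclic endometrium, where 3.37% of 386 tested miRNAs were called. With lists this short, 0 called is near that share and is no result about a cell type. Of 5 leukocyte miRNAs (both arms of miR-142, miR-223, miR-150 and miR-155), 0 were called and 2 had a log2 fold change above 0. Their summed level lay between 2816 and 3474 CPM in pregnant and between 1956 and 3265 CPM in cyclic endometrium. Of the 2 arms of miR-126, a miRNA of endothelium, 0 were called, with sums between 1598 and 4816 CPM in pregnant and between 2523 and 3946 CPM in cyclic endometrium. Of 6 epithelial miRNAs 0 were called, of 4 erythroid ones 0, and of 2 of smooth muscle and stroma 0, with medians of 0.16, −0.14 and −0.25 on the log2 scale. Of 3 muscle miRNAs 1 was tested and 0 called. Of 3 neuronal ones (miR-124, miR-9 and miR-7), 1 was called, eca-miR-9a, and miR-124, a defining marker of neurons, was at 0 in every library. The neuronal sum lay between 959 and 2520 CPM in pregnant and between 478 and 4265 CPM in cyclic endometrium. eca-miR-155, of activated leukocytes, was 0.97 higher on the log2 scale in pregnant endometrium (FDR 0.00523 from edgeR's quasi-likelihood test), short of the fold change of 2. The part of these levels in the value of eca-miR-132 was not tested. Fewer cells of a type and less RNA per cell cannot be told apart in such samples.

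eca-miR-132 was higher in UF than in the endometrium in cyclic mares, while the same comparison in pregnant mares missed the threshold. In cyclic mares, the 4 UF values, between 96.6 and 516 CPM, all lay above the 4 endometrial values, between 10.8 and 93.0 CPM, which was the case for 8.84% of 328 tested miRNAs. The level was 4.33-fold higher in cyclic UF, a log2 fold change of 2.12 (standard error 0.71, interval 0.60 to 3.63) with an FDR of 0.0335 in edgeR's quasi-likelihood test, and 11.9% of the tested miRNAs were called as higher there. It was higher in UF of 4 of 4 cyclic mares, from 1.47-fold in mare 2 (counting interval 0.855 to 2.55) to 19.5-fold in mare 4 (6.23 to 98.5). The call was lost without mare 1 (log2 fold change 1.75, FDR 0.0968) and without mare 4 (1.82, FDR 0.137).

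In pregnant mares, UF was above the endometrium in 4 of 5 mares and below it in mare 4. The log2 fold change was 0.94 (standard error 0.40, interval 0.08 to 1.80) with an FDR of 0.0793 in edgeR's quasi-likelihood test, where 13.6% of the tested miRNAs were called as higher in UF. Scaled by library totals it was 1.10 and called (FDR 0.0483), as also with known miRNAs only (1.15, FDR 0.0199), with a stricter filter on low counts (1.06, FDR 0.032) and without mare 4 (1.09, FDR 0.043). eca-miR-212 had log2 fold changes of 1.31 in cyclic mares (standard error 0.76, FDR 0.213) and of 0.14 in pregnant mares (standard error 0.57, interval −1.07 to 1.35, FDR 0.883), neither of them called.

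Beside the pair, most markers of endothelium, red blood cells and stroma were lower in UF. Of all tested miRNAs, 20.1% were called lower in UF than in endometrium in pregnant and 18.9% in cyclic mares. Both arms of miR-126 were among them in either kind of cycle, with summed levels between 7.42 and 316 CPM in the 9 UF libraries against at least 1598 CPM in the endometrium. Of the 4 erythroid miRNAs, 3 were called lower in pregnant and 3 in cyclic mares, and of miR-143 and miR-145 of smooth muscle and stroma, 1 and 2. The 5 leukocyte miRNAs summed to between 1268 and 2791 CPM in UF, with 1 of 5 called lower in pregnant and 0 in cyclic mares. Epithelial miRNAs were between 50510 and 97730 CPM in UF, with 1 of 6 called higher in pregnant and 2 of 6 in cyclic mares. Of all tested miRNAs, 13.6% and 11.9% were called higher there. The part of these levels in the result for eca-miR-132 was not tested.

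**Figure D3:**
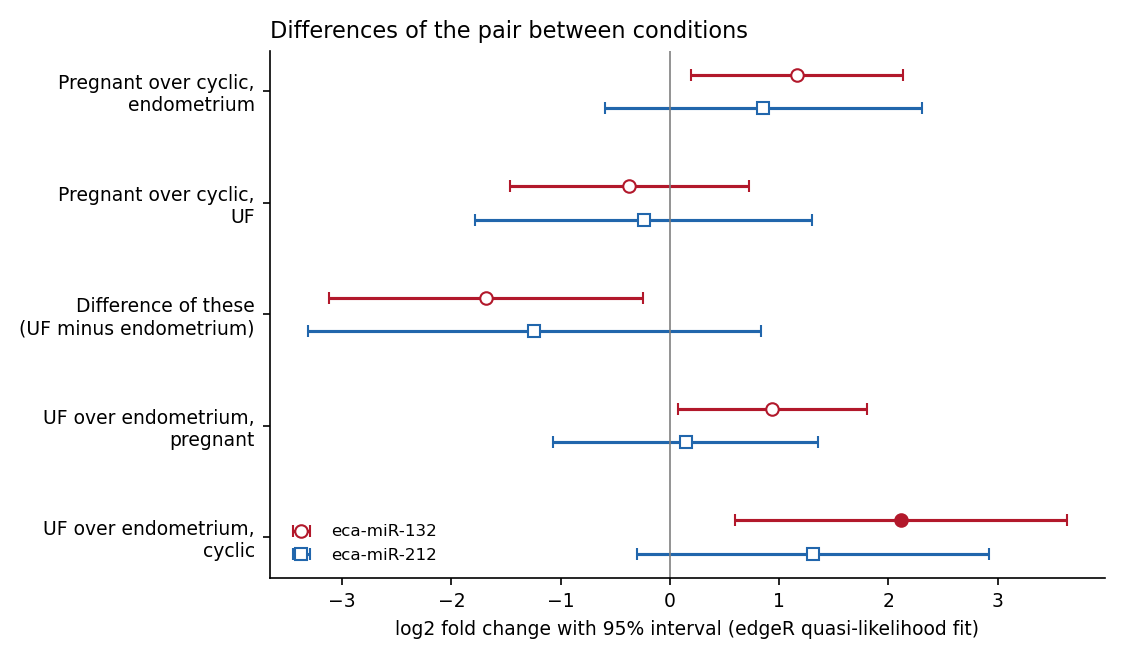
Log2 fold changes of eca-miR-132 (circles) and eca-miR-212 (squares) in 5 comparisons of maternal samples, with 95% intervals from edgeR's quasi-likelihood fit; filled symbols passed both thresholds (the difference between compartments at the FDR alone). The filled symbol is eca-miR-132 in cyclic UF against cyclic endometrium at 2.12, and the intervals of eca-miR-212 all include 0.

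The embryos were the group in which the absence of eca-miR-132 was best supported by depth. At the rate of pregnant endometrium, the 179448 reads of the 5 embryos would have held 15.1 reads of eca-miR-132, and at the rate of pregnant UF 32.5, while 0 were counted. With the floor of 3 reads over the group, 16.7 CPM, the mean level was at least 4.98-fold lower in the embryos than in pregnant endometrium and at least 10.7-fold lower than in pregnant UF. edgeR's quasi-likelihood test called it lower against both (FDR 0.000105 and 0.000302), where 42.6% and 38.7% of the tested miRNAs were called lower. These comparisons use the same embryos. Against the cyclic groups, for which no test was fitted, the bounds were at least 3.08-fold for endometrium and at least 14.4-fold for UF. For eca-miR-212 the embryos would have held 3.22 reads at the rate of pregnant endometrium and 4.10 at that of pregnant UF. By the floor of 3 reads, its level was at least 1.09-fold lower than in pregnant endometrium. The exact Poisson upper limit for 0 reads in the embryos, 20.6 CPM, lies above the mean of pregnant endometrium, 18.2 CPM. Although edgeR's quasi-likelihood test called it (FDR 0.00285), no difference can thus be stated at this depth. Against pregnant UF it had too few reads to be tested. Both miRNAs entered the test through the endometrial or UF libraries alone.

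In YS fluid the depth did not allow a firm statement. The 2 reads of eca-miR-132 correspond to 37.0 CPM over the group, with an exact Poisson interval of 4.49 to 134 CPM, which includes the 84.2 CPM (71.5 to 98.6) found when the reads of pregnant endometrium are pooled. The pooled level in pregnant endometrium was 2.27 times that in YS fluid (counting interval 0.619 to 18.9), and that in pregnant UF 4.88 times (1.32 to 40.9). edgeR's quasi-likelihood test called eca-miR-132 lower in YS fluid than in pregnant endometrium (FDR 0.0053) and than in pregnant UF (FDR 0.00205), where 35.2% and 36.1% of the tested miRNAs were called lower. It entered these tests through the maternal libraries, since only 1 YS fluid held a read. Scaled by library totals it was called in neither (FDR 0.305 and 0.0582). TMM places the median of all tested miRNAs at −0.84 on the log2 scale between YS fluid and pregnant endometrium, and library totals at 1.16. Relative to that median, the log2 fold change of eca-miR-132 was −2.32 under TMM and −2.33 under library totals. For eca-miR-212, the floor of 55.6 CPM over the group lies above its level in each maternal group, so a difference was not detectable at this depth. The test nevertheless called it lower than in pregnant endometrium (FDR 0.0164), again with reads in the endometrial libraries alone, a call that was lost under library totals (FDR 0.231), under DESeq2 (FDR 0.361), with RLE size factors (FDR 0.0662), with known miRNAs only (FDR 0.0535) and without replicate 5 (FDR 0.0589).

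Leukocyte miRNAs also had few reads in the conceptus. In the embryos the 5 of them summed to between 48.3 and 193 CPM, and 5 of 5 were called lower than in pregnant endometrium and than in pregnant UF, against the 42.6% and 38.7% of all tested miRNAs. In YS fluid 1 of the 5 had reads, at between 138 and 919 CPM, and 5 of 5 were called lower than in either, against 35.2% and 36.1%. Those without reads entered the tests through the maternal libraries alone, so at this depth their calls give no size of a difference. The 4 erythroid miRNAs and the 2 of smooth muscle and stroma were likewise all called lower than in pregnant endometrium, in embryos and in YS fluid. Both arms of miR-126 were called lower in the embryos than in pregnant endometrium, and 0 of 2 were called against pregnant UF. The part of these levels in the result for eca-miR-132 in the embryos was not tested.

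Most reads of the pair were of eca-miR-132 in each maternal group. It took 86.1% of the 554 reads of the pair (exact 95% binomial interval 82.9 to 88.9), or 6.19 reads for each read of eca-miR-212. Its share was 82.4% (76.2 to 87.6) in pregnant and 83.1% (71.0 to 91.6) in cyclic endometrium, and 88.8% (81.6 to 93.9) in pregnant and 88.9% (83.5 to 93.0) in cyclic UF. As a ratio, this was 4.70 and 4.90 reads of eca-miR-132 for each read of eca-miR-212 in pregnant and cyclic endometrium, and 7.92 and 8 in pregnant and cyclic UF. The ratio was thus higher in UF than in endometrium in either kind of cycle, with overlapping intervals, and the difference was not tested. These are shares of reads and not of molecules, since the yield of a library differs between sequences.

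**Figure D4:**
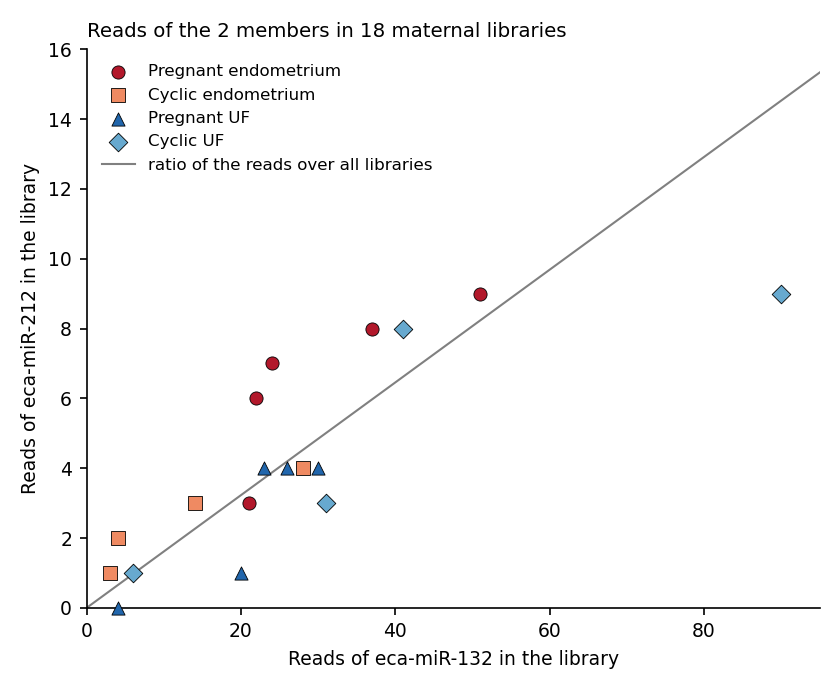
Reads of eca-miR-212 against reads of eca-miR-132 in the 18 maternal libraries, with the ratio of the reads over all libraries as a line. The cyclic UF library with 90 reads of eca-miR-132 and 9 of eca-miR-212 lies farthest from the line, and 4 of the 5 pregnant endometrial libraries lie above it.

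Across the 28 libraries, log2 CPM of the pair correlated with r = 0.89. The points share the depth of their library, and the 10 conceptus libraries near 0 draw the value up. Over the 18 maternal libraries r was 0.65, and over the 9 endometrial ones 0.72. By the same measure, the known miRNAs with at least 100 reads whose pattern was most like eca-miR-132 over the 28 libraries were eca-miR-190b (r = 0.89), eca-miR-150 (0.89), eca-miR-27a (0.89), eca-miR-449a (0.87) and eca-miR-181b (0.87), of 194 compared. For eca-miR-212 they were eca-miR-132 (0.89), eca-miR-27a (0.82), eca-miR-204b (0.81), eca-miR-24 (0.81) and eca-miR-181b (0.80), of 195. eca-miR-150, a miRNA of lymphocytes, had 0 reads in the embryos and 0 in YS fluid, and was at 83.4 ± 31.1 CPM (SD, n = 5) in pregnant endometrium and 169 ± 52.8 CPM (SD, n = 5) in pregnant UF. eca-miR-449a, a miRNA of ciliated epithelium, was at 5678 ± 3138 CPM in pregnant endometrium, 29532 ± 4330 in pregnant UF and 580 ± 264 in the embryos (SD, n = 5 each). Over the 18 maternal libraries r with eca-miR-132 was 0.50 for eca-miR-190b, 0.24 for eca-miR-150, 0.10 for eca-miR-27a, 0.48 for eca-miR-449a and −0.01 for eca-miR-181b, while eca-miR-132 stayed first of 195 for eca-miR-212.

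Of the other miRNAs tied to the same signals, few were called between pregnant and cyclic samples. eca-miR-21, which gonadotropin raises in granulosa cells together with the pair, was 0.65 higher on the log2 scale in pregnant endometrium (standard error 0.14) with an FDR of 8.1e-05 in edgeR's quasi-likelihood test, short of the fold change of 2, and 0.58 higher in UF (standard error 0.29, FDR 0.355). Among 7 miRNAs linked to CREB, to the neuronal repressor REST or to neuronal activity (miR-9, miR-124, miR-134, miR-137, miR-128, miR-138 and miR-219), 4 were tested in the endometrium and 1 was called, against 3.37% of all tested miRNAs. This was eca-miR-9a, higher in pregnant mares by 1.23 (FDR 0.000946). In UF 4 were tested and 0 called by edgeR, where 4.92% of all tested miRNAs were called and 14.1% had an unadjusted p under 0.05. Between compartments, 13.6% of all tested miRNAs were called higher and 20.1% lower in UF in pregnant mares, and 11.9% and 18.9% in cyclic mares. Of the 4 tested here, 1 was called higher and 2 lower in UF in either kind of cycle. The higher one was eca-miR-137, with 28 reads in UF and 1 in endometrium in pregnant mares and 26 and 2 in cyclic mares (FDR 0.000597 and 0.00681 from edgeR's quasi-likelihood test). eca-miR-9a was among the lower ones, with log2 fold changes of −4.09 and −4.69. Among 6 entries linked to vessels (both arms of miR-126, miR-221, miR-222, miR-296 and miR-378), 5 could be tested in either compartment, and 0 were called between pregnant and cyclic samples. The paper reports eca-miR-221 as higher in pregnant endometrium at the same thresholds. Here its log2 fold change there was 0.20 (FDR 0.800 in edgeR's quasi-likelihood test). Between compartments, 1 of the 5 vessel entries was called higher and 2 lower in UF in pregnant mares, against the shares given above. In cyclic mares 2 were called higher and 2 lower, the lower ones in either kind of cycle being the arms of miR-126. eca-miR-222 was higher in UF by 1.75 in pregnant and by 1.57 in cyclic mares, and eca-miR-221 by 1.14 in cyclic mares.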

How the data were processed

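The authors trimmed reads with cutadapt 1.11, removed reads shorter than 17 bases, of quality under 20 or with ambiguities, and counted them with miRPro on miRBase release 22 and EquCab2.0. The deposited values are raw read counts per miRNA. How reads matching several miRNAs were counted is not given in the sources used here. Per the file headers, the precursor counts are those of the predicted mature miRNAs, and they were not used. No sequences of the miRNAs were used here.

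Known and predicted miRNAs were fitted together with edgeR 4.0.16 in R 4.3.3 on the libraries compared. A miRNA was tested if it reached 1 CPM in a number of libraries no smaller than the smaller group, TMM was used for normalization, and p-values of the quasi-likelihood test were adjusted by Benjamini-Hochberg over all tested miRNAs. The sample number was taken as the mare, since the study used mares as their own controls, and entered the pregnant against cyclic fits as a block. Mare 5, without a cyclic library, enters the normalization but not that contrast. Deviations from the group mean correlated across 277 miRNAs by 0.198 on average for samples of 1 mare and −0.0505 for different mares in the endometrium, and by 0.254 and −0.0636 in UF. Within 1 mare they ranged from −0.0772 to 0.319 in the endometrium. Between UF and endometrium the averages for 1 mare were 0.0251 in pregnant and 0.00503 in cyclic cycles. Comparisons with the conceptus gave −0.115 to 0.111. Deviations cancel out within a group, so averages for different mares are tied to those for 1 mare. DESeq2 1.42.0 and other settings were alternatives. Standard errors and intervals follow from the F statistic. Likeness used log2 CPM with a prior count of 2. The named miRNAs are the members, the 5 most alike to each, and the called or most abundant members of marker and pathway lists from general knowledge. Members and lists were chosen with earlier results of these data known. Calculations used Python 3.11.15 with scipy 1.17.1, and PCR copies are not independent molecules.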

Additional observations from a re-analysis of the deposited data

Results flagged for a closer look

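The level of eca-miR-132 in the YS fluid of mare 3, 153 CPM, stood apart from the other 4 YS fluids, which were at 0. It rests on 2 reads, fewer than the 3 taken as the floor. The flag compares the gap to the nearest value with the range of the group. Its limit of 0.71 would be passed by about 1 in 20 groups by chance if values were normally distributed, which counts near 0 are not. The ratio was 1 here, as for any single value beside 4 at 0.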

How the results depend on the processing

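For eca-miR-132 in pregnant against cyclic endometrium, 16 of 17 alternatives, 1 of them chosen after seeing the data, left it uncalled, with an FDR of up to 0.986. Its log2 fold change lay between 0.70 and 1.66 with a replicate left out, where leaving out mare 2 gave the call. In UF 0 of 17 called it. In pregnant UF against pregnant endometrium it was called with library totals (1.10), filterByExpr (1.06) and known miRNAs only (1.15), and lay between 0.79 and 1.09 with a replicate left out. In cyclic mares 13 of 15 alternatives called it, with a range of 1.75 to 2.95 with a replicate left out. Library totals ended its call in YS fluid against pregnant endometrium (−1.16) and pregnant UF (−2.22). In the embryo it was called under each alternative that gave a value, 16 against the endometrium and 15 against UF. With 0 reads of eca-miR-132 in the embryos, this agreement adds no support beyond the counts themselves. For eca-miR-212 in YS fluid the call was lost with DESeq2 (−1.19), RLE size factors (−4.87), library totals (−4.83) and known miRNAs only (−4.87), and the value lay between −5.17 and −4.82 with a replicate left out. Its log2 fold change changed sign in pregnant against cyclic UF without mare 4 (0.21, range −0.90 to 0.21), and in pregnant UF against pregnant endometrium with no filter on low counts (−0.017) and without mare 2 (−0.03) or mare 3 (−0.15, range −0.15 to 0.34). The causes were not tested. The correlation of the pair moved to 0.65 over the maternal and 0.72 over the endometrial libraries, and lay between 0.88 and 0.91 with a replicate left out.

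Without the replicate block, the log2 fold changes of eca-miR-132 and eca-miR-212 were 1.07 and 0.99 in the endometrium and −0.40 and −0.45 in UF, and the difference between compartments was −1.44 and −1.42. With the replicate block added, eca-miR-132 was at 0.86 in pregnant and 2.05 in cyclic UF against endometrium. The block changed 0 calls of the pair. Over all miRNAs, the number called went from 13 to between 0 and 15 in the endometrium and from 15 to between 0 and 26 in UF across the alternatives, with 0 in both without the block. The filterByExpr filter removed a member in 9 results, and DESeq2 gave no adjusted p for eca-miR-212 in UF. Depth limits eca-miR-212 most, with 77 reads in all.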

Other observations

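A predicted miRNA of the deposited counts carries the same number and is called pred-miR-132 here. The number only marks its place in that list, and its sequence was not used. The paper lists the predicted miRNA of this number as higher in pregnant endometrium. In the counts, pred-miR-132 had 358 reads in pregnant and 67 in cyclic endometrium, 147 in pregnant and 361 in cyclic UF, 10 in the embryos and 160 in YS fluid. Unlike eca-miR-132, with 2 reads there, it was thus well represented in YS fluid.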
